A study of Homo sapiens with 6 samples.

Results

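The integrated stress response and the unfolded protein response were examined in melanoma cells through 44 genes, taken by symbol from expression tables of 47432 genes. The list was chosen by name, with earlier results of these data known. It covers ATF4 with its partners and feedback genes (12 genes), enzymes of amino acid synthesis (6 genes) and cytosolic tRNA synthetases (8 genes). It also covers endoplasmic reticulum (ER) chaperones and folding factors (10 genes), ER-associated degradation (4 genes), and the stress sensors with XBP1 (4 genes). All 44 were found in the tables. Of these, 42 were tested on exon reads, each with at least 26 exon reads in every library, and 34 on intron reads. PHGDH and NUPR1 were too low to be tested.

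The libraries came from LOX-IMVI, an established human melanoma line that expresses IκBζ. Both groups carried a lentiviral pLKO.1 construct and had been selected with puromycin. The shCtrl group carried the control construct, and the shNFKBIZ group a short hairpin RNA directed at NFKBIZ, the gene for IκBζ, with 3 libraries per group. A single NFKBIZ hairpin was used, so that a lower NFKBIZ level and any other effect of this hairpin cannot be told apart.

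Libraries held from 22264473 to 24624839 exon reads and from 1812526 to 1975528 intron reads. Exon reads of NFKBIZ were 1519, 1629 and 1674 in shCtrl and 474, 477 and 468 in shNFKBIZ, a log2 fold change of -1.78 (SE 0.0581). Of the melanocyte markers, SOX10, MLANA and S100B had no exon read in any library, and MITF averaged 3.21 TPM (exon reads scaled to exon length and library) in shCtrl and 2.00 TPM in shNFKBIZ. The cells thus lacked defining pigment lineage markers, whereas VIM averaged 3131 TPM and AXL, a marker of dedifferentiated melanoma, 407 TPM in shCtrl. NGFR, another marker of dedifferentiated melanoma, was near 0, with 0.0505 TPM in shCtrl and 0.0277 TPM in shNFKBIZ. Markers of leukocytes, epithelium and endothelium were near 0, and the fibroblast collagen gene COL1A2 averaged 0.240 TPM in shCtrl and 0.0159 TPM in shNFKBIZ. The part of these differences in the results was not tested.

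Cells respond to misfolded protein in the ER through 3 sensors, PERK (EIF2AK3), IRE1 (ERN1) and ATF6. PERK and related kinases phosphorylate the initiation factor eIF2α, which lowers general protein synthesis and at the same time allows translation of the ATF4 mRNA. ATF4 then raises genes for amino acid synthesis, amino acid uptake and tRNA charging, whereas cleaved ATF6 and spliced XBP1 raise ER chaperones and the degradation machinery. ATF4 is thus controlled largely by translation and XBP1 by splicing, and neither was measured by gene counts.

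These arms are known to use different promoter elements, and examples are shown for genes whose values are described below. In the RefSeq promoters (build GRCh38.p14, 300 bases around a start site, several starts for some genes), 39 of the 44 genes had an entry. The C/EBP-ATF response element (CARE) was searched as TGATGNAA, the ER stress response element (ERSE) as CCAAT and CCACG with 9 bases of any kind between them, and its variant ERSE-II as ATTGG and CCACG with 1 base between them, on both strands. CARE was found in 8 of the 39 genes and in 4.46% of all genes with a promoter. ERSE was found in 7 and in 0.0916% of all genes, and ERSE-II in 2 and in 0.0696%. Of the 7 tRNA synthetases with an entry, 4 held CARE (AARS1, GARS1, MARS1 and NARS1) and 0 held ERSE. Of the 10 ER chaperones, 6 held ERSE (CALR, CANX, CRELD2, HSP90B1, HSPA5 and PDIA6) and 0 held CARE. The XBP1 element TGACGTGG was in none of the 39 and in 0.927% of all genes. No element was found in the windows of EDEM1 or STC2. The matches in the other genes past the threshold and in HSPA5 follow, each as 30 bases of the gene's own strand with the element in capitals. In CHAC1 and AARS1 the element lies on the opposite strand and reads as its reverse complement.
ASNS, chr7:97872458-97872487, minus strand, element from position -68 to the start site: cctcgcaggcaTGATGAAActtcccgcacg
CHAC1, chr15:40953251-40953280, plus strand, from -209: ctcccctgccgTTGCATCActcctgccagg
AARS1, chr16:70289675-70289704, minus strand, from -187: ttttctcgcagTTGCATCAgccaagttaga
HSPA5, chr9:125241385-125241414, minus strand, from -66: cttcaCCAATCGGCGGCCTCCACGacgggg

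Most of the 42 tested genes were slightly lower in shNFKBIZ cells, and few changed by 2-fold. The threshold was an adjusted P of 0.05 or less (edgeR quasi-likelihood test, adjusted over all genes tested) together with a change of 2-fold or more. CHAC1, ASNS, AARS1 and EDEM1 were past it and lower, and STC2 was past it and higher. That is 4 genes lower and 1 higher. Of the 13843 genes tested, 8.96% were past the threshold, 5.12% lower and 3.84% higher. With a limit of 1.5-fold in place of 2-fold, 11 of the 42 passed, where 22.4% of all genes tested did. By adjusted P alone, 26 of the 42 were lower and 9 higher, where 32.8% of all genes tested were lower and 32.5% higher. The groups were fully apart for 36 of the 42 genes, and for 68.7% of all genes tested. The median log2 fold change was -0.23 over the 42 genes and 0.00431 over all genes.

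**Figure D1:**
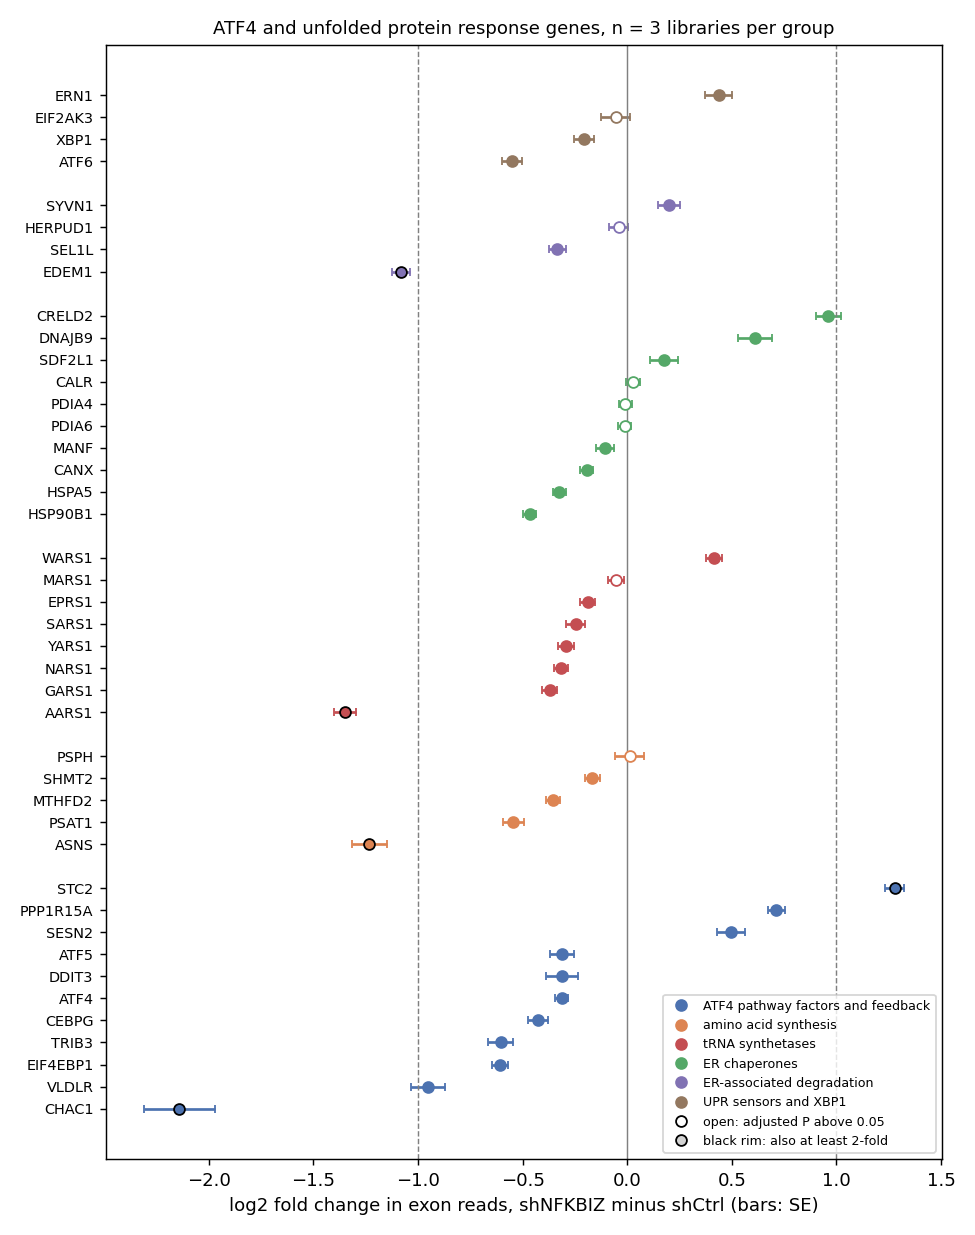
Log2 fold change in exon reads (shNFKBIZ minus shCtrl, x axis) of the 42 tested genes, by role, with bars for the SE and dashed lines at a 2-fold change. CHAC1 is lowest at -2.14 and STC2 highest at 1.28, and most of the other genes lie within the dashed lines to the left of 0.

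The arm of amino acid synthesis and tRNA charging was compared with the ER chaperone arm. Of its 14 genes 13 were tested, with a median log2 fold change of -0.29. Of these, 10 were lower and 1 higher by adjusted P, and 2 did not pass. The 10 chaperones had a median of -0.01, with 4 lower, 3 higher and 3 that did not pass. By adjusted P, 32.8% of all genes tested were lower and 32.5% higher, so that the chaperone counts were near these shares. Expression in TPM, summed over the arm, was 1598, 1703 and 1671 in the shCtrl libraries and 1412, 1427 and 1410 in the shNFKBIZ libraries for amino acid synthesis and tRNA charging. The groups did not overlap, and the ratio of the means was 0.855. For the chaperones the sums were 3764, 3685 and 3782 in shCtrl and 3648, 3736 and 3658 in shNFKBIZ, which overlapped, with a ratio of 0.983. With library size alone as scaling, the median log2 fold change of all genes was 0.0937 and those of the arms were -0.20 and 0.08, so that the chaperones were near the median of all genes in both settings. TPM carries that scaling too, and small differences in TPM are therefore higher than the fitted changes. No test was made of the difference between the arms.

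ATF4 itself, the transcription factor that gives the response its name, was lower by a small amount. Its level was 656, 677 and 692 TPM in shCtrl and 577, 583 and 565 TPM in shNFKBIZ. Each shNFKBIZ library was below each shCtrl library, and the log2 fold change came to -0.31 (SE 0.0318, adjusted P 1.63e-08). Its intron reads were 1 or 2 per library and were not tested. The related factor ATF5 (-0.31), the ATF4 partner CEBPG (-0.43) and DDIT3 (-0.31), which encodes the pro-apoptotic factor CHOP, were lower as well. In exon-exon reads, which span a junction, ATF5 (-0.07, adjusted P 0.778) and DDIT3 (-0.39, adjusted P 0.0666) did not pass. ATF5 overlaps IL4I1 and NUP62 in the annotation, and DDIT3 overlaps MARS1.

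Of the 11 tested genes in the group of ATF4 factors and feedback, 8 were lower and 3 higher by adjusted P. The shares over all genes tested were 32.8% lower and 32.5% higher. CHAC1 (chromosome 15, 40952962 to 40956512, plus strand, hg38) encodes a γ-glutamylcyclotransferase that breaks down glutathione. It had 9.18, 11.1 and 12.2 TPM in shCtrl and 2.41, 3.22 and 2.13 TPM in shNFKBIZ. These levels rest on 117, 146 and 144 exon reads and on 29, 38 and 26. The groups were well apart, and the change of -2.14 on the log2 scale (SE 0.168, adjusted P 2.6e-10) was the largest of the 42 genes in either direction. It is a 4.41-fold fall. STC2 (chromosome 5, 173314723 to 173328447, minus strand), which encodes the secreted glycoprotein stanniocalcin 2, went the other way. Its level was 58.4, 64.6 and 69.6 TPM in shCtrl and 162, 172 and 160 TPM in shNFKBIZ, so that the lowest shNFKBIZ library was above every shCtrl library. STC2 rose 2.43-fold, or by 1.28 on the log2 scale (SE 0.0446, adjusted P 1.01e-15).

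The feedback genes of the pathway were split. PPP1R15A, whose product GADD34 brings a phosphatase to eIF2α, rose from 123 ± 9.18 to 213 ± 8.95 TPM (SD, n = 3), a log2 fold change of 0.71. SESN2, which encodes a leucine-binding inhibitor of mTORC1 signaling, rose by 0.50 on the log2 scale. In contrast, TRIB3, which encodes a pseudokinase that restrains ATF4, had a log2 fold change of -0.61. EIF4EBP1, the gene for the translation repressor 4E-BP1, had the same value of -0.61. VLDLR, a lipoprotein receptor, stood just short of the fold limit at -0.95, and passed it only without shNFKBIZ replicate 1 (-1.04). For NUPR1, a stress-induced chromatin protein, the exon reads were 1, 0 and 1 in the shCtrl libraries and 5, 4 and 2 in the shNFKBIZ libraries, too few for a test.

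**Figure D2:**
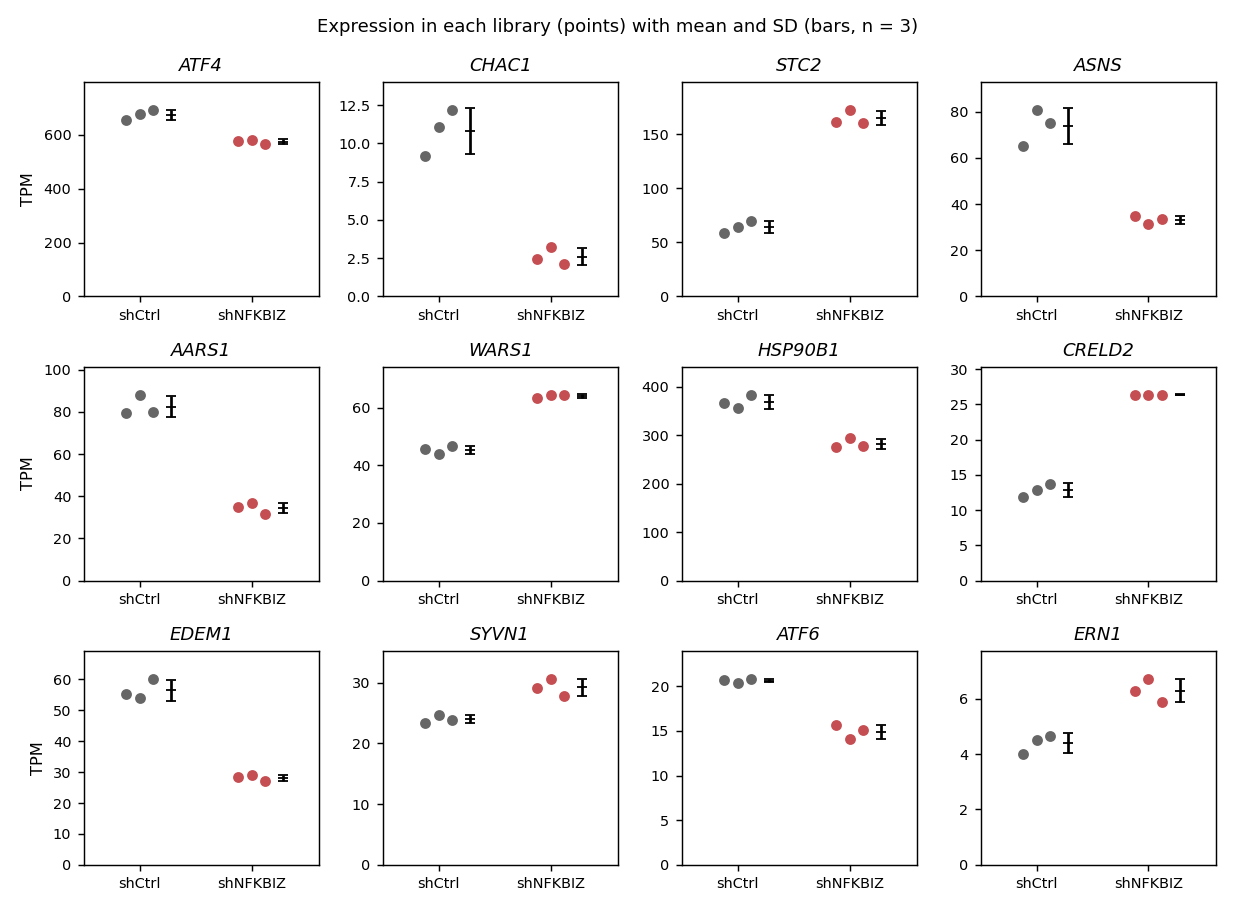
Expression in TPM (y axis, from 0) of 12 genes in each library, with points for the 3 libraries of shCtrl (grey) and shNFKBIZ (red) and bars for mean and SD. The groups do not overlap in any of the 12, which apart from ATF4 were chosen by their changes, and in scaled counts they do not overlap for 68.7% of all genes tested. The gap is widest relative to the level for CHAC1, AARS1, ASNS and STC2.

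Among the enzymes of amino acid synthesis, 4 of the 5 tested were lower by adjusted P and none was higher. The shares over all genes tested were 32.8% lower and 32.5% higher. ASNS (chromosome 7, 97851677 to 97872542, minus strand), which encodes asparagine synthetase, had 65.3, 80.7 and 75.3 TPM in shCtrl and 34.9, 31.3 and 33.5 TPM in shNFKBIZ. The groups did not overlap, with shCtrl replicate 1 the lowest of its group, and the change on the log2 scale was -1.23 (SE 0.0854, adjusted P 2.47e-06). Only 2.07% of its exon reads were unique, and the gene model ENSG00000284707 overlaps it on the same strand. That model had at most 56 exon reads in a library, and the sum of both had a log2 fold change of -1.20. Reads of both cannot be told apart. Of the serine synthesis pathway, PHGDH, its first enzyme, had 1 exon read in all 6 libraries together. It was therefore not compared between the groups. PSAT1, the second enzyme, was at 165 ± 11.7 TPM in shCtrl and 120 ± 3.87 TPM in shNFKBIZ (SD, n = 3), a log2 fold change of -0.54. PSPH, the last enzyme, did not pass (0.01, SE 0.0690, adjusted P 0.886), and its groups overlapped. The mitochondrial one-carbon enzymes MTHFD2 (-0.36) and SHMT2 (-0.17) were lower, and SHMT2 did not pass in exon-exon reads (-0.07, adjusted P 0.181).

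The 8 cytosolic tRNA synthetases join amino acids to their tRNAs. By adjusted P 6 of them were lower, 1 higher and 1 did not pass, where 32.8% of all genes tested were lower and 32.5% higher. AARS1 (alanyl-tRNA synthetase, chromosome 16, 70251983 to 70289707, minus strand) stood apart from the rest. Its level was 79.4, 88.2 and 79.9 TPM in shCtrl and 34.7, 36.6 and 31.7 TPM in shNFKBIZ. The groups were far apart, and AARS1 was lower by 2.55-fold (log2 fold change -1.35, SE 0.0540, adjusted P 2.03e-11). GARS1 (-0.37), NARS1 (-0.32), YARS1 (-0.29), SARS1 (-0.25) and EPRS1 (-0.19), which charge glycine, asparagine, tyrosine, serine, and glutamate with proline, were lower by less than a 1.5-fold change. MARS1, the methionyl enzyme, did not pass at -0.05 (SE 0.0374, adjusted P 0.225). WARS1, the tryptophanyl enzyme, is also known as an interferon-γ-induced gene. It had 45.6, 43.9 and 46.8 TPM in shCtrl and 63.3, 64.6 and 64.6 TPM in shNFKBIZ, so that it was higher in every shNFKBIZ library. The change on the log2 scale was 0.42 (SE 0.0388, adjusted P 4.41e-09).

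The ER chaperones held the most abundant transcripts of the list, and these moved little or down. CALR, the calcium-binding chaperone calreticulin, was the most abundant of the 44 genes at 1151 ± 27.1 TPM in shCtrl, followed by HSPA5 at 826 ± 4.79 TPM (SD, n = 3). CALR did not pass the test (0.03, SE 0.0326, adjusted P 0.457). HSPA5 encodes BiP, the Hsp70 of the ER, and fell to 698 ± 4.83 TPM, a log2 fold change of -0.33 (SE 0.0317). HSP90B1, the gene for the Hsp90 of the ER (GRP94), had 366, 356 and 384 TPM in shCtrl and 275, 294 and 278 TPM in shNFKBIZ. These groups were apart, and the change of -0.47 on the log2 scale (SE 0.0325, adjusted P 3.5e-11) was the lowest of the chaperones. The lectin chaperone gene CANX (-0.19) and the folding factor gene MANF (-0.11) were also lower, and MANF did not pass in exon-exon reads (-0.06, adjusted P 0.423). The disulfide isomerase genes PDIA4 and PDIA6 did not pass, both at -0.01. With library size alone they had adjusted P values of 0.0222 and 0.0205 and log2 fold changes of 0.08 each, below the 0.0937 of the median gene.

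Of the 10 chaperone genes, 3 rose by adjusted P, where 32.5% of all genes tested did. CRELD2, which encodes a secreted ER stress-induced protein with isomerase activity, had 11.8, 12.9 and 13.8 TPM in shCtrl and 26.3, 26.4 and 26.4 TPM in shNFKBIZ. The groups were far apart, and its change of 0.96 on the log2 scale (SE 0.0602, adjusted P 5.56e-12) was just short of the fold limit. It passed the limit with library size alone (1.05). DNAJB9, which encodes the BiP co-chaperone ERdj4, rose from 16.2 ± 1.35 to 26.1 ± 0.415 TPM (SD, n = 3), a log2 fold change of 0.61. SDF2L1, a partner of ERdj proteins, rose by 0.18 on the log2 scale (SE 0.0663, adjusted P 0.0231). Both HSPA5 and CRELD2 hold ERSE in the promoter window, and they differed in direction.

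ER-associated degradation was represented by the ubiquitin ligase gene SYVN1, its partner SEL1L, HERPUD1 and EDEM1. EDEM1 (chromosome 3, 5187646 to 5219958, plus strand) encodes a mannosidase-like protein that directs misfolded glycoproteins to degradation. Its level was 55.3, 53.9 and 60.2 TPM in shCtrl and 28.4, 29.1 and 27.2 TPM in shNFKBIZ. The spread within each group was small against this gap, and EDEM1 was lower by 2.12-fold (log2 fold change -1.08, SE 0.0442, adjusted P 3.63e-15). With library size alone it was -0.99, which is short of the fold limit. SEL1L was lower (-0.33). SYVN1 was slightly higher, with 23.4, 24.7 and 23.9 TPM in shCtrl and 29.1, 30.6 and 27.8 TPM in shNFKBIZ. These groups did not overlap (log2 fold change 0.20, SE 0.0519, adjusted P 0.00196), while its exon-exon reads did not pass (0.07). HERPUD1, which holds both CARE and ERSE-II, did not pass on exon reads (-0.04, SE 0.0458, adjusted P 0.461).

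Of the 3 sensors, ATF6 fell, ERN1 rose and EIF2AK3 did not pass. ATF6 was at 20.7, 20.4 and 20.8 TPM in shCtrl and 15.6, 14.1 and 15.1 TPM in shNFKBIZ, lower in every shNFKBIZ library (log2 fold change -0.55, SE 0.0479, adjusted P 1.46e-09). ERN1 was expressed at a low level, with 3.99, 4.52 and 4.66 TPM in shCtrl and 6.28, 6.72 and 5.89 TPM in shNFKBIZ. Each shNFKBIZ library was above each shCtrl library (log2 fold change 0.44, SE 0.0634, adjusted P 3.06e-06). EIF2AK3 had about the same level in both groups, 3.51 ± 0.105 and 3.57 ± 0.234 TPM (SD, n = 3), and did not pass (-0.06, SE 0.0689, adjusted P 0.491). XBP1, the target of IRE1, was lower by 0.21 on the log2 scale in total exon reads, which do not tell its spliced form from the unspliced. In exon-exon reads XBP1 did not pass (-0.17, adjusted P 0.138).

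Intron reads were then examined, since they come largely from unspliced transcripts and are a second readout of the same libraries. Of the 34 genes tested on intron reads, 12 were lower and 4 higher by adjusted P, where 19.5% of the 12119 genes tested were lower and 19.3% higher. Past the threshold were ASNS, TRIB3 and HSP90B1, lower, and STC2, higher, where 6.6% of all genes were, 3.89% lower and 2.71% higher. The groups were fully apart for 19 of the 34 genes, and for 48.2% of all genes. STC2 intron reads were 132, 145 and 143 in shCtrl and 308, 337 and 363 in shNFKBIZ, a log2 fold change of 1.17 (SE 0.0909), close to that of its exon reads. The intron reads of ASNS were 134, 128 and 126 in shCtrl and 46, 43 and 34 in shNFKBIZ (-1.74, SE 0.145), while the overlapping gene model had from 41 to 68 in a library. For TRIB3 the intron reads were 47, 44 and 41 in shCtrl against 20, 32 and 10 in shNFKBIZ. The change of -1.18 on the log2 scale (SE 0.248) passed the fold limit only with shNFKBIZ replicate 3, without which it was -0.85. HSP90B1 intron reads were 148, 141 and 145 in shCtrl and 79, 70 and 71 in shNFKBIZ, a log2 fold change of -1.07 (SE 0.123), which is lower than that of its exon reads.

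Whether the exon change of a gene differed from its intron change was then tested, as the interaction term of 1 model fitted to both kinds of reads. By adjusted P, 11 of the 34 genes passed, 6 with a positive and 5 with a negative difference. Of the 11025 genes in the model 28.9% passed, 12.4% with a positive and 16.5% with a negative difference. The lowest differences were those of AARS1 (-0.91, SE 0.166, adjusted P 5.62e-06) and EDEM1 (-0.87, SE 0.116, adjusted P 9.14e-10). EDEM1 had 129, 135 and 140 intron reads in shCtrl and 123, 132 and 118 in shNFKBIZ, so that the fall seen in exon reads had little counterpart there. AARS1 had 71, 59 and 68 intron reads against 55, 65 and 36. These overlap, and the intron change of -0.44 (SE 0.175) just passed by adjusted P (0.0456). PSPH (-0.55), PDIA4 (-0.40) and CANX (-0.36) also had negative differences, and for PSPH and PDIA4 the intron reads were higher while the exon reads did not pass. CANX was lost without shCtrl replicate 2 (-0.34), shNFKBIZ replicate 2 (-0.32) or shNFKBIZ replicate 3 (-0.30).

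SESN2 had exon and intron changes of opposite sign, both of which passed. Its exon reads rose from 893, 1057 and 785 to 1331, 1235 and 1329, while its intron reads were 98, 126 and 85 in shCtrl and 73, 83 and 69 in shNFKBIZ. The intron change was -0.55 (SE 0.139), and the difference of 1.04 (SE 0.138, adjusted P 7.46e-10) was, with that of CRELD2, the largest of the 34. CRELD2 had few intron reads, from 8 to 19 per library, and its difference of 1.05 (SE 0.350, adjusted P 0.0155) was lost without shCtrl replicate 2 (0.72, adjusted P 0.246), shNFKBIZ replicate 1 (0.93, adjusted P 0.0615) or shNFKBIZ replicate 3 (0.81, adjusted P 0.0992). HSP90B1 (0.60), HERPUD1 (0.52), ASNS (0.51) and SARS1 (0.49) had positive differences. That of HERPUD1 was lost without shNFKBIZ replicate 1 (0.44). The difference of ASNS was lost without shCtrl replicate 1 (0.41) or shNFKBIZ replicate 3 (0.39). For SARS1, whose intron reads were more numerous (2702 in all), the intron change was -0.74 (SE 0.0692).

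**Figure D3:**
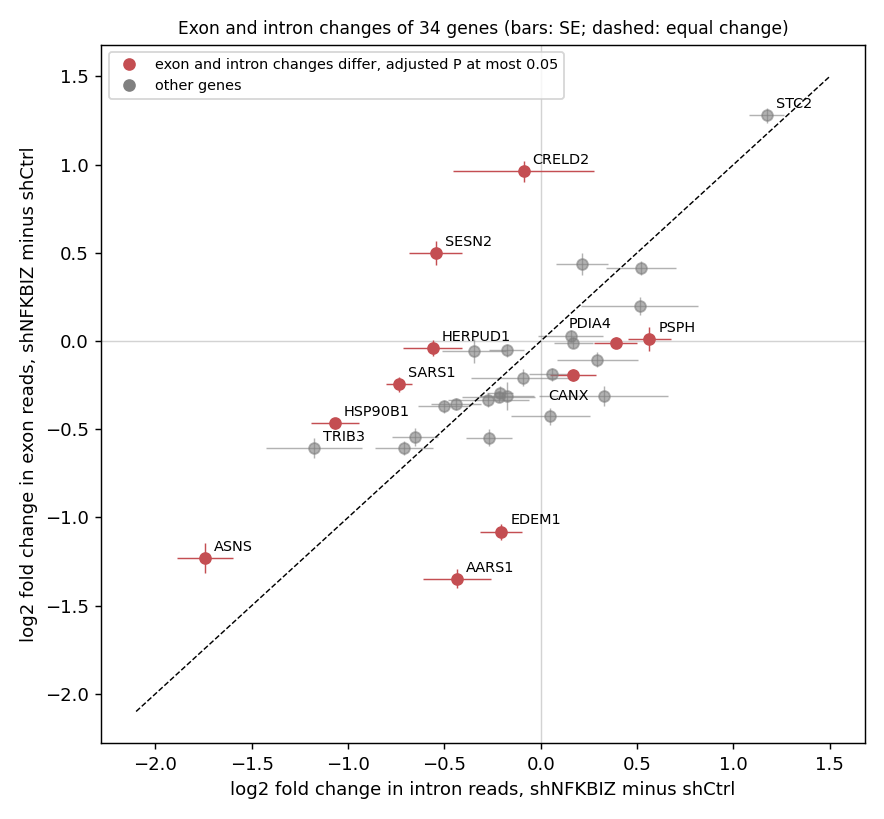
Log2 fold change in exon reads (y axis) against that in intron reads (x axis), shNFKBIZ minus shCtrl, for the 34 genes tested in both, with bars for the SE and a dashed line of equal change. The 11 genes whose changes differ are red, with AARS1 and EDEM1 farthest below the line and SESN2 and CRELD2 farthest above it.

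Strand was not used in the counting, and several of these genes overlap others in the annotation, among them AARS1 (DDX19B), CRELD2 (ALG12), HSP90B1 (C12orf73), WARS1 (WDR25) and DDIT3 with MARS1, which overlap each other on opposite strands. Reads of such pairs cannot be told apart. Fragments that span an exon junction were therefore fitted alone. Of the 35 genes called by adjusted P on all exon reads, 28 passed in these fragments, which are part of those reads. Of all genes fitted on such fragments 54.9% passed, but that share includes genes not called on all exon reads and is not a like comparison. ATF5, DDIT3, SHMT2, MANF, SYVN1 and XBP1 did not pass and CHAC1 was not tested. Of the genes past or near the fold limit, AARS1 had a log2 fold change of -1.45 (SE 0.0524), ASNS -1.17, EDEM1 -1.10, STC2 1.20, CRELD2 0.98 and VLDLR -0.93. CHAC1 had too few such fragments for a test, with 6, 16 and 14 in shCtrl and 3, 0 and 3 in shNFKBIZ.

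The transcripts were also searched for the 7-mer GGAACTC, which an earlier scan of these same data had picked for the low changes of the genes that hold it. In the Ensembl canonical transcripts of GENCODE release 44, it was found in 6 of the 44 genes, and in 19.8% of the genes tested on exon reads that have such a transcript. AARS1 and EDEM1 each held 2 copies, and 3.14% of the genes tested held 2 or more. ASNS, ATF6, CANX and EIF4EBP1 held 1 copy. The differences between exon and intron changes of these 4 were 0.51, -0.28, -0.36 and 0.10, and those of ATF6 and EIF4EBP1 did not pass. In exon reads all 6 genes were lower, from -0.19 (CANX) to -1.35 (AARS1), and the 7-mer had been picked for such low changes. PSPH and PDIA4, which also had a negative difference, held none. The sites of AARS1 and EDEM1 are shown because these genes had the lowest differences, as 30 bases of the transcript with the 7-mer in capitals (hg38). Those of AARS1 are in the coding sequence, in exons 4 and 16 of 21, and those of EDEM1 in the 3′ untranslated part of exon 12 of 12. The second AARS1 site runs over an exon junction, so that its coordinates include an intron.
AARS1, chr16:70276590-70276619, minus strand: aagatggctctGGAACTCctcacccaagag
AARS1, chr16:70255810-70258035, minus strand: aacgcacctgcGGAACTCgagtcatgcagg
EDEM1, chr3:5216770-5216799, plus strand: aacttacctgaGGAACTCccatagttccag
EDEM1, chr3:5219547-5219576, plus strand: caagtacctgtGGAACTCcctgattctata
The part of the 7-mer in the changes of AARS1 and EDEM1 was not tested.

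Other genes of both pathways were taken from further lists. Of 27 other genes linked to ATF4, 12 were lower and 6 higher by adjusted P, with a median log2 fold change of -0.16. Of all genes tested, 32.8% were lower and 32.5% higher. Past the threshold were DDIT4 and ATF3, lower, and SLC1A4 and TXNIP, higher. DDIT4, which encodes the mTORC1 inhibitor REDD1, had 42.3, 54.9 and 46.1 TPM in shCtrl and 11.7, 11.7 and 11.1 TPM in shNFKBIZ, with a log2 fold change of -2.14 (SE 0.0999), the same as that of CHAC1. ATF3, a stress-induced transcription factor, had 18.2, 19.3 and 18.5 TPM in shCtrl and 9.59, 9.73 and 9.74 TPM in shNFKBIZ (-1.03, SE 0.0734). Without shCtrl replicate 2 it was just short of the fold limit (-0.99), as it was with library size alone (-0.94) and in exon-exon reads (-0.80). The neutral amino acid transporter gene SLC1A4 rose from 5, 8 and 3 exon reads to 45, 40 and 43 (2.96, SE 0.312), and averaged 1.05 TPM in shNFKBIZ. TXNIP, which encodes the thioredoxin-interacting protein, rose from 39.7 ± 5.64 to 144 ± 5.76 TPM (SD, n = 3), a log2 fold change of 1.77. All 4 pairs of groups were apart, as were those of 68.7% of all genes tested, and these 4 genes were chosen by the threshold.

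The 12 other cytosolic tRNA synthetases had a median of -0.04, with 5 lower, 3 higher and none past the threshold, and ranged from -0.37 (VARS1) to 0.42 (FARSB). The 20 other ER folding genes had a median of -0.13, with 12 lower and 3 higher, and ranged from -0.90 (FKBP14) to 0.18 (FKBP2). Of 20 other genes of ER-associated degradation and protein export 19 were tested, with a median of -0.08, 7 lower and 4 higher. DERL3 had no read. None of these was past the threshold. By adjusted P, 32.8% of all genes tested were lower and 32.5% higher. Of the 112 other pathway genes tested, 2 were past the threshold and higher and 2 lower, where 8.96% of all genes were past it.

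**Figure D4:**
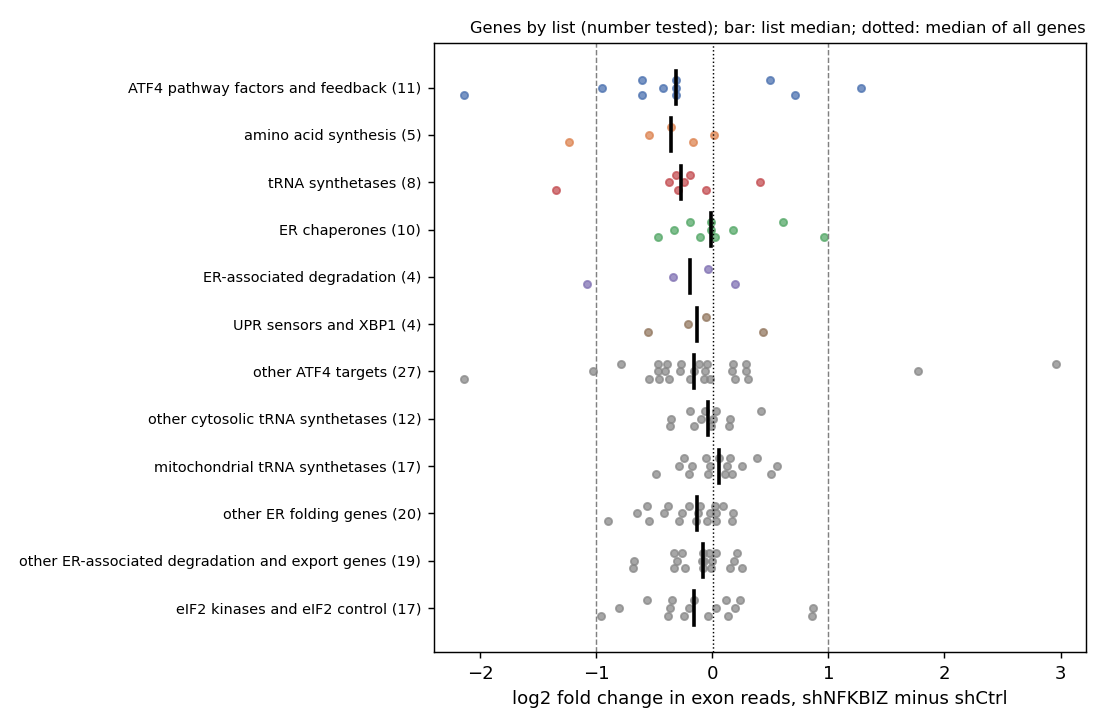
Log2 fold change in exon reads (x axis, shNFKBIZ minus shCtrl) of each tested gene by list, the 42 genes in color and other pathway genes in grey, with a bar at each list's median and a dotted line at the median of all genes tested. The medians of amino acid synthesis and tRNA synthetases lie at -0.36 and -0.27, that of the ER chaperones at -0.01. The other cytosolic tRNA synthetases and the other ER folding genes, at -0.04 and -0.13, do not show this contrast.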

How the data were processed

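The 6 libraries were assigned to groups and replicate numbers by their sample titles. Per the study's methods, the authors mapped the reads to GRCh38 with CLC Genomics Workbench and counted fragments from both strands; the deposited counts are whole numbers, given per gene for exon, intron and exon-exon reads. TPM was computed from the exon counts and exon lengths, and equalled the deposited TPM. Exon and intron counts were tested separately with edgeR 4.0.16 in R 4.3.3 (filterByExpr, TMM factors, robust two-sided quasi-likelihood test, Benjamini-Hochberg adjustment over all genes tested). The SE is the log2 fold change over the square root of F. The exon and intron changes were compared in an interaction model with library as block. The fits were tested on simulated data. The methods state independent biological replicates. Counts of the libraries within a group differed by more than sampling noise (lowest chi-square of a pair 1.71 per degree of freedom). This value shows that no library was a copy of another, and cannot tell whether the cultures were separate.

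The genes, lists, motifs and tests were chosen with earlier results of these data known. Values per library are given for genes past the threshold, for ATF4, and for the largest rise and fall by adjusted P in each role. Further genes were named for their role, and some ends of the other lists after their values were seen. Promoters are RefSeq sequences, 250 bases before to 50 after a start. Other settings were RLE factors, unscaled library sizes, 2 other count filters (10 counts in each library, or none), DESeq2 1.42.0, unique reads, total gene reads, a replicate block, each library left out, correction for GC content and exon length, and other thresholds. Exon-exon reads, and ASNS summed with the gene model that overlaps it, were added after the data were seen.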

Additional observations from a re-analysis of the deposited data

How the results depend on the processing

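Of the 42 genes, 5 were past the threshold on exon reads, and as many under RLE factors, library size alone, both count filters, DESeq2, unique reads, total gene reads, the replicate block and removal of the GC content and exon length trend, though with library size alone EDEM1 (-0.99) was lost and CRELD2 (1.05) gained. There were 4 with exon-exon reads, in which CHAC1 was too low to be tested. The fits without single libraries called 5 or 6. With a fold change of at least 1.5 in place of 2 there were 11, and 13 of the 112 other pathway genes tested in place of 4. Of all genes tested, 22.4% passed at 1.5-fold and 8.96% at 2-fold. The median log2 fold change of the amino acid and tRNA synthetase arm was -0.20 with library size alone and -0.25 with the GC content and exon length trend removed, and lay between -0.32 and -0.25 when single libraries were left out (-0.25 without shCtrl replicate 2). That of the ER chaperones was 0.0794 with library size alone and 0.0372 with exon-exon reads, and lay between -0.0134 and -0.0043 when single libraries were left out. Changes of sign were limited to genes that did not pass the main test: PSPH (-0.00264, -0.0174 and -0.0029 without shCtrl replicate 2, shCtrl replicate 3 and shNFKBIZ replicate 2, and up to 0.0526 without the others), and with library size alone MARS1 (0.0371), PDIA4 (0.0800), PDIA6 (0.0788), HERPUD1 (0.0501) and EIF2AK3 (0.0335). Exon-exon reads gave MARS1 0.00567, PDIA4 0.0471 and PDIA6 0.0273, and the trend removal CALR -0.00727, PDIA6 0.0224 and EIF2AK3 0.0432. Of 812 values of single genes under the alternatives, 785 kept direction and side of the threshold. The cause of the others was not tested. On exon reads the threshold joins adjusted P with the 2-fold limit. A gene below 2-fold thus counts as kept even where it lost adjusted P, as ATF5 did in exon-exon reads. Replicate numbers were not taken as pairs, since the correlations between same-numbered libraries, as deviations from their group means, were 0.0254, 0.0828 and 0.0161. With the replicate block 35 of the 42 genes passed by adjusted P, as many as without it. Depth limits PHGDH, NUPR1, the intron reads of CRELD2 and the exon-exon reads of CHAC1.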

Other observations

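A further list of 17 genes held eIF2 kinases, eIF2 subunits and their control. It also held MBTPS1, MBTPS2, CREB3L2 and ATF6B, which are not eIF2 genes. Of these, CREB3L2 (-0.37) was lower by adjusted P, MBTPS1 (0.24) and ATF6B (0.86) were higher, and MBTPS2 did not pass. Over all 17 genes 9 were lower and 5 higher by adjusted P, where 32.8% of all genes tested were lower and 32.5% higher. The median log2 fold change of the 17 was -0.15. EIF2AK1, which encodes the heme-regulated eIF2 kinase, had 79.0, 81.8 and 86.3 TPM in shCtrl and 44.8, 44.4 and 45.2 TPM in shNFKBIZ, a log2 fold change of -0.96 (SE 0.0407). The difference between its exon and intron changes was -0.91. Its transcript held 1 copy of GGAACTC. Of the 113 other pathway genes 23 held at least 1 copy, where 19.8% of all genes tested on exon reads with a canonical transcript did. Of the 103 in the model of the difference, 17 had a negative one by adjusted P, where 16.5% of all genes did. Of these 17 genes 5 held the 7-mer. EIF2B5 (-0.89) and EIF2B3 (-0.60) had negative differences with no copy. EIF2AK2 and PPP1R15B, with 2 copies each, had differences of -0.245 and 0.239 that did not pass, and exon changes of -0.80 and -0.34. The 7-mer was picked from these same data, and its part in these changes was not tested. EIF2AK2, the interferon-induced double-stranded RNA kinase PKR, was lower by 0.80 on the log2 scale, while EIF2AK4, the amino acid sensor GCN2, was higher by 0.20. IMPACT, an inhibitor of GCN2, rose from 15.9 ± 0.880 to 30.7 ± 0.917 TPM (SD, n = 3), and ATF6B, the paralog of ATF6, from 71.0 ± 4.37 to 136 ± 10.1 TPM. ATF6 and ATF6B therefore moved in opposite directions. None of the 17 was past the fold limit.

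The 17 mitochondrial tRNA synthetases had 7 genes higher and 5 lower by adjusted P, with a median of 0.06. Of all genes tested, 32.5% were higher and 32.8% lower. AARS2, the mitochondrial counterpart of AARS1, did not pass on exon reads (-0.04, adjusted P 0.497, edgeR). Its intron reads were higher (0.73, adjusted P 1.35e-05, edgeR). The difference between its exon and intron changes was -0.77 (adjusted P 7.47e-07, edgeR).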
